A study of Mus musculus with 6 samples.

Results

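NF-κB is a family of transcription factors assembled in pairs from 5 Rel-family subunits, and its release into the nucleus is set by an upstream kinase complex. The 9 genes described here were taken by symbol from 24411 gene rows: the 5 subunit genes (Nfkb1, Nfkb2, Rel, Rela and Relb), the 3 genes of the IκB kinase (IKK) complex (Chuk, Ikbkb and Ikbkg) and Map3k14, the kinase of the alternative pathway. RNA came from cultured primary microglia of the mouse, macrophages that reside in the brain, and was sequenced in 6 directional libraries. In 3 libraries the cells had received FTY720 (fingolimod, a sphingosine analogue) at 1 µM for 4 h. In the other 3 they had received FTY720 at 1 µM together with LPS (lipopolysaccharide, a bacterial cell wall component that acts through Toll-like receptor 4) at 10 ng/ml, also for 4 h. Every library thus carried FTY720, and cells without it were not analysed here. Per the labels, the microglia came from pooled brains of 12 ICR mice aged 3 days, were shaken off mixed glial cultures, and were over 92% positive for CD11b. The labels call the replicates independent RNA samples but do not tie them to separate animal pools or cultures, so p-values measure the spread between these samples, which may be technical.

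In resting cells, NF-κB dimers are held in the cytoplasm by IκB proteins. In the canonical route, receptor signals activate the IKK complex, in which Ikbkb (IKKβ) is the main kinase for IκB, Chuk (IKKα) is its partner and Ikbkg (NEMO) is the regulatory subunit without kinase activity; IκB is then degraded and dimers such as p50 with RelA enter the nucleus. In the non-canonical route, Map3k14 (NIK) activates Chuk, which triggers the processing of the Nfkb2 product p100 to p52, the usual partner of RelB. Nfkb1 encodes p105, the precursor of p50, and both precursors also act as IκB-like inhibitors. Rela, Relb and Rel encode RelA, RelB and c-Rel, the subunits with a transactivation domain. In microglia and other macrophages, LPS is a classical trigger of the canonical route.

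On the mouse assembly GRCm38, the same as the build mm10 named for the files, GENCODE M21 places Nfkb1 on chromosome 3 (135584655 to 135691547, minus strand), Relb on chromosome 7 (19606217 to 19629438, minus strand) and Rel on chromosome 11 (23736847 to 23770970, minus strand). Rela (5637483 to 5648130, plus strand), Nfkb2 (46304320 to 46312385, plus strand) and Chuk (44073335 to 44107480, minus strand) lie on chromosome 19. Ikbkb is on chromosome 8 (22659212 to 22706589, minus strand), Ikbkg on chromosome X (74393290 to 74453854, plus strand) and Map3k14 on chromosome 11 (103219762 to 103267472, minus strand). All are protein-coding, and the counts are of reads in annotated exons.

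RefSeq promoter windows on GRCm38.p6, from 250 bases before to 50 bases after a start site, matched 6 of the 9 members by symbol, with 11 windows. These were searched on both strands for the κB consensus, the DNA motif bound by Rel-family dimers (3 G, a purine, any base, 3 pyrimidines and 2 C), whose matches may overlap each other. It was found in 4 windows, 3 of Nfkb2 and 1 of Rel, and in none (0) of the windows of Rela, Chuk, Map3k14 and Ikbkg. Nfkb1, Relb and Ikbkb had no window and were not searched. Of all 32851 promoter windows of that length, 5.8% held a match. A looser pattern, 3 G, any 5 bases and 2 C, was present in 50.8% of all windows and in at least 1 window of all 6 members. The windows below are shown because Nfkb2 and Rel were among the subunits with the largest increases and Rela had the smallest; letters run 5′ to 3′ on the gene's strand and capitals mark κB consensus matches.
Nfkb2, first start site, chr19:46304487-46304786, plus strand: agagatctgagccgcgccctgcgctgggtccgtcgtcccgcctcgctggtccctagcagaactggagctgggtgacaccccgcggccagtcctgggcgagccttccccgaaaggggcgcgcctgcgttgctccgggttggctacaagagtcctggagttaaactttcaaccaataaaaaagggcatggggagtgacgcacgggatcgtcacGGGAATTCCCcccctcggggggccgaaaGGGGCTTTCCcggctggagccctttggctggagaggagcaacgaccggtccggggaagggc
Nfkb2, second start site, chr19:46305445-46305744, plus strand: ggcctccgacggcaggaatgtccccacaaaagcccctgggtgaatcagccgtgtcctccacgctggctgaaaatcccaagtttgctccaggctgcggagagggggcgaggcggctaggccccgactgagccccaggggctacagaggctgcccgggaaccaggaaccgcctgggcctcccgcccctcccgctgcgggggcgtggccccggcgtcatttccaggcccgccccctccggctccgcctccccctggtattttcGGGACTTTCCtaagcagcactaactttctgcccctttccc
Rel, chr11:23770920-23771219, minus strand: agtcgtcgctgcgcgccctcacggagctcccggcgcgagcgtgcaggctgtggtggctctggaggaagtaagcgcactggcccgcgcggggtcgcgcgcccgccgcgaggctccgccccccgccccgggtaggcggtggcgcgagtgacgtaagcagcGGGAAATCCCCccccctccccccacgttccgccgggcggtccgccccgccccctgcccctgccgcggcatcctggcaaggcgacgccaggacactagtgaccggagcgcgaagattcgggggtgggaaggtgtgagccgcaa
Rela, chr19:5637291-5637590, plus strand: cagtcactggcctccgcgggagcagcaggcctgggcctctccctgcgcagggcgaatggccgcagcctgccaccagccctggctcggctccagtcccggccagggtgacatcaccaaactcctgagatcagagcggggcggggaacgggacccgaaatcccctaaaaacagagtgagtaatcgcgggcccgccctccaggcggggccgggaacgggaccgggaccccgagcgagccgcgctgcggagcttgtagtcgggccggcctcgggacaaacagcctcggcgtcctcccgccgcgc

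Counting the start site as 0, the first Nfkb2 window matched at -39, on both strands, with GGGAATTCCC, and at -11 with GGGGCTTTCC. The second Nfkb2 window matched at 10 with GGGACTTTCC, and the third Nfkb2 window, which overlaps the second, holds the same match. The Rel window matched on the opposite strand at -92 with GGGATTTCCC and, shifted by 1 base, at -91 with GGGGATTTCC. A match describes letters in these windows only. Map3k14, which rose 2.35-fold with LPS, had 0 consensus matches in its window. Whether matches go with the size of change was not tested.

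Adding LPS to FTY720 was accompanied by higher transcript levels of all 5 Rel-family subunits, but by very unequal amounts, and the IKK complex split. Nfkb2, Nfkb1 and Rel rose 10.8-fold, 6.88-fold and 6.51-fold, Relb rose 2.65-fold, and Rela rose 1.46-fold. Chuk and Map3k14 rose 1.59-fold and 2.35-fold, Ikbkg fell 1.91-fold, and Ikbkb did not pass the test. All 9 members passed the filter on low counts. By edgeR's quasi-likelihood test 7 of the 9 were called higher and 1 lower at an adjusted p under 0.05, where 23.3% of the 10124 tested genes were called higher and 22.7% lower. The libraries of the groups did not overlap for 8 of the 9 members, against 54% of all tested genes. A rise of at least 2-fold was called for 5 members and for 8.49% of tested genes, and one of at least 4-fold for 3 members and for 2.82% of tested genes. Because 46% of all tested genes were called in either direction, a call by itself says little about a member, and sizes are given for each.

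**Figure D1:**
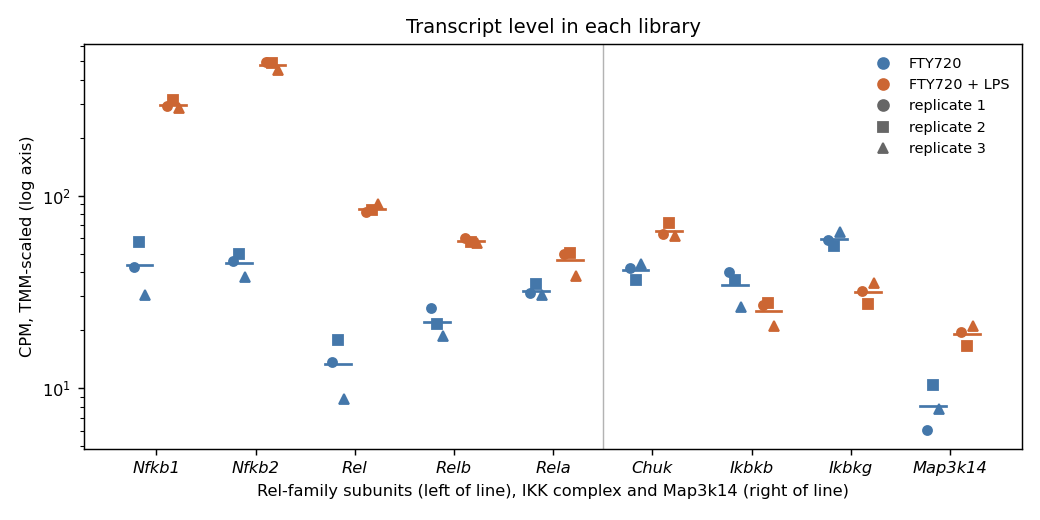
Transcript levels in CPM (reads per 1000000 gene reads, scaled by TMM factors), on a log axis, for the 9 genes in each of 6 libraries; points are libraries, marker shapes are replicates and short lines are group means (n = 3). Groups are separate for every gene except Ikbkb, and the widest gaps are those of Nfkb2, Nfkb1 and Rel.

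Library depth bears on these values. Gene reads numbered 2431775 to 3454647 per library, of which 28.8% to 59.0% fell on 3 rRNA-like rows (Rn45s, Lars2 and Mir6236). FTY720 replicate 3 stood apart, with the smallest rRNA-like share (28.8%, against 47.9% and 59.0% in FTY720 replicates 1 and 2) and more dissimilar counts (chi-square per degree of freedom 3.88 and 4.92 against replicates 1 and 2, which differed from each other by 1.34). Of the 8 microglial markers, none (0) was at 0 reads in all libraries. Their summed level was 1482 to 1638 CPM with FTY720 and 2190 to 2510 CPM with LPS added. Of the 7 tested microglial markers, 6 were called higher and 0 lower. The summed level of 8 oligodendrocyte-lineage markers was 270 to 295 CPM (269.8 to 294.5) and 143 to 164 CPM, and that of 7 neuron markers 189 to 253 CPM and 107 to 118 CPM, so both lay lower with LPS; 5 of 6 and 3 of 4 tested markers of these lists were called lower. Monocyte and border macrophage markers (5 genes, Ly6c2 at 0 in all libraries) summed to 66.3 to 72.6 CPM and 102.5 to 127.5 CPM, and 4 endothelial markers to 3.36 to 8.06 CPM and 10.2 to 14.6 CPM. In each of these lists only 1 gene passed the filter and was tested, and it was called higher. Astrocyte markers (8 genes) and fibroblast and mural markers (6 genes, Rgs5 at 0 in all libraries) overlapped between the groups. Of 7 tested astrocyte markers 2 were called higher and 1 lower, and of 4 tested fibroblast and mural markers 0 were called. The part of these shifts in the member values was not tested, and in bulk RNA fewer cells of a type and less RNA per cell cannot be told apart.

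Nfkb2 showed the largest change among the members. Its level was 46.0, 50.1 and 37.7 CPM in FTY720 replicates 1, 2 and 3, and 492, 488 and 451.5 CPM in the corresponding libraries with LPS. Every LPS library stood far above every FTY720 library. The log2 fold change was 3.43 ± 0.13 (SE, n = 3 per group; edgeR adjusted p = 2.72e-16). In reads, Nfkb2 went from 445 over the FTY720 libraries to 3352 over the LPS libraries.

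Nfkb1, the gene of p105 and p50, stood at 42.7, 57.8 and 30.6 CPM with FTY720 and at 292, 313 and 285 CPM with LPS. The FTY720 libraries differed more among themselves for their level (mean 43.7 ± 13.6 CPM, SD, n = 3) than the LPS libraries (297 ± 14.7 CPM), and the groups did not overlap. On the log2 scale the rise was 2.78 ± 0.16 (edgeR adjusted p = 9.33e-13). It was 3.06 without FTY720 replicate 2, the library with the highest value, and 2.56 without FTY720 replicate 3, the library with the lowest.

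Rel, which encodes c-Rel, had few reads with FTY720: 41, 53 and 37 per library, or 13.8, 17.8 and 8.77 CPM. With LPS it had 220, 197 and 179 reads, or 82.6, 83.9 and 90.2 CPM. The groups lay wide apart, and replicate 3 was the lowest of the FTY720 libraries and the highest of the LPS libraries. Rel rose by 2.70 ± 0.19 on the log2 scale (edgeR adjusted p = 3.14e-11).

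Relb, the subunit of the non-canonical dimer, rose by less. Its values were 26.2, 21.5 and 18.7 CPM with FTY720 and 60.1, 57.5 and 56.9 CPM with LPS, with no overlap. On the log2 scale Relb rose by 1.41 ± 0.16 (edgeR adjusted p = 1.7e-07).

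Rela, which encodes the RelA (p65) subunit of the prototypical dimer, changed least among the subunits. It stood at 31.3, 34.6 and 30.3 CPM with FTY720 and at 49.9, 50.7 and 38.3 CPM with LPS. The groups did not overlap, although LPS replicate 3 lay nearer to the FTY720 libraries than to the other LPS libraries. The log2 fold change was 0.54 ± 0.16 (edgeR adjusted p = 0.0071), with a 95% interval of 0.22 to 0.86. This call rests on the scaling: with total library size alone it was 0.23 ± 0.29 (edgeR adjusted p = 0.563). In that setting the median of all tested genes moved from -0.04 to -0.36, and relative to that median Rela stood at 0.59, against 0.58 with TMM factors. Scaling shifts all genes by nearly the same amount, so the relative value stays close in any scaling and is no check on the call.

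In the IKK complex, Chuk and Ikbkg moved in opposite directions. Chuk (IKKα) was at 42.3, 36.6 and 44.3 CPM with FTY720 and at 63.4, 72.0 and 61.5 CPM with LPS. Each LPS library exceeded each FTY720 library, and the log2 fold change was 0.67 ± 0.14 (edgeR adjusted p = 0.000466). As for Rela, total library size alone ended the call (0.33 ± 0.29, edgeR adjusted p = 0.385). Relative to the median of all genes in that setting Chuk stood at 0.69, which likewise is no check on the call.

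Ikbkg (NEMO) was called lower. Its level was 59.1, 55.1 and 64.9 CPM with FTY720 and 31.9, 27.3 and 35.3 CPM with LPS, so that the highest LPS library stayed below the lowest FTY720 library. The log2 fold change was -0.93 ± 0.15 (edgeR adjusted p = 2.64e-05). G6pdx overlaps the Ikbkg locus on the opposite strand but shares 0 bp of exon with it in the basic GENCODE set, and the reads used were those of the Ikbkg strand.

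Ikbkb (IKKβ), the main IκB kinase, was at 40.0, 36.6 and 26.5 CPM (39.98, 36.62 and 26.54) with FTY720 and at 27.0, 27.7 and 21.2 CPM (27.03, 27.68 and 21.16) with LPS. The groups overlapped through FTY720 replicate 3. The log2 fold change was -0.42 ± 0.19 (edgeR adjusted p = 0.0697), with a 95% interval of -0.80 to -0.03 before adjustment for the number of genes. The value was negative in all 14 alternative fits, and 5 of them called it, among them the fit without FTY720 replicate 3 (-0.58, edgeR adjusted p = 0.00313).

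Map3k14 (NIK), the kinase that starts the non-canonical route, had the fewest reads of the 9 genes, 82 over the FTY720 libraries and 133 over the LPS libraries. Its level was 6.05, 10.4 and 7.82 CPM with FTY720 and 19.5, 16.6 and 21.2 CPM with LPS. The groups did not overlap, and the log2 fold change was 1.23 ± 0.24 (edgeR adjusted p = 0.000219), the largest standard error among the members. Map3k14 shares 135 bp of exon with the transcript 1700028N14Rik on the same strand. That transcript has no row in the counts, so any of its reads in that stretch may be counted as Map3k14.

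In TMM-scaled CPM, FTY720 replicate 3 had the lowest FTY720 level of all 5 subunits and of Ikbkb. Its TMM factor was 1.43, against 1.10 and 0.87 for FTY720 replicates 1 and 2, so this order depends in part on the scaling. Without FTY720 replicate 3 the log2 fold changes were 3.31 for Nfkb2, 2.43 for Rel, 1.29 for Relb, 0.51 for Rela, 0.74 for Chuk, 1.21 for Map3k14 and -0.86 for Ikbkg, each with the same call as with it.

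**Figure D2:**
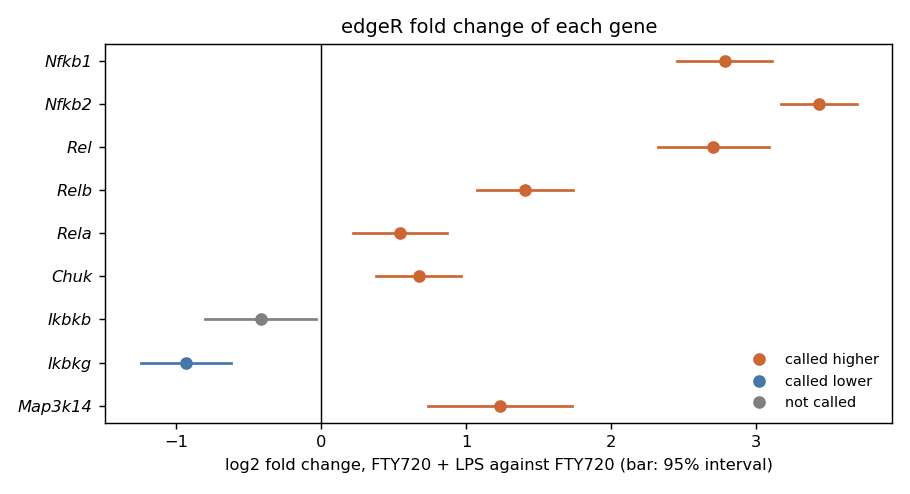
The log2 fold change of each gene from edgeR, FTY720 with LPS against FTY720 alone, with its 95% interval as a bar; colours give the call at adjusted p under 0.05. The intervals of Nfkb1, Nfkb2 and Rel start at 2.32 or higher, those of Relb and Map3k14 at 1.08 and 0.74, and those of Ikbkg and Ikbkb end below 0, with Ikbkb not called after adjustment over all genes.

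Levels of different genes were compared per kilobase of exon, using the exons of the GENCODE basic set. The sources used here do not give the annotation behind the deposited counts. These levels, their order and their separation therefore depend on that choice of length. For Nfkb1 the union of all exons is 12061 bp against 4124 bp in the basic set, for Relb 3885 against 2211, and for Rel 7466 in both. The order was not rerun with the union. With FTY720 alone, Rela, Chuk, Nfkb1, Nfkb2 and Relb were close together, with means of 11.8, 11.7, 10.6, 10.6 and 10.0 CPM per kb (10.01 for Relb), and each overlapped its neighbour in that order. Ikbkg (8.15) and Ikbkb (7.58) followed and also overlapped their neighbours. Below a gap came Map3k14 (1.91) and Rel (1.801), which overlapped each other.

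With LPS the order spread out. Nfkb2 led with 113 ± 5.28 CPM per kb (SD, n = 3), followed by Nfkb1 with 71.9 ± 3.56 and Relb with 26.3 ± 0.76, each separate from the next. Chuk (18.7) and Rela (17.1) overlapped. Rel (11.5) was separate from the genes above and below it, and Ikbkb (5.58), Map3k14 (4.498) and Ikbkg (4.29) formed an overlapping group at the bottom. The summed level of the 5 subunits was 46.5, 50.7 and 37.1 CPM per kb with FTY720 and 244, 247 and 228 with LPS, a ratio of means of 5.36 (exact two-sided permutation p = 0.1, the smallest that 3 against 3 libraries allow).

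The makeup of the subunit pool changed along with its size. In the share of summed reads per kb of the 5 subunits, Nfkb2 took 23.5%, 23.4% and 24.0% in the FTY720 libraries and 47.8%, 46.7% and 46.9% in the LPS libraries. Rela went the other way, from 24.8%, 25.1% and 30.1% to 7.54%, 7.54% and 6.19%. In both cases the groups were far apart relative to the spread within them.

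Relb, although its level rose, had a smaller share with LPS: 22.5% ± 3.18% with FTY720 and 10.98% ± 0.42% with LPS (SD, n = 3). The Nfkb1 share was 23.3% ± 3.93% and 30.0% ± 0.86% (SD, n = 3), without overlap but with an FTY720 replicate 2 at 27.6%. That difference depended on the exon lengths: it was 6.72 percentage points here, 3.06 with the union of all exons, and 3.20 without division by length, where the exact two-sided permutation p was 0.4. The Rel share overlapped between the groups, at 3.95% ± 0.77% and 4.79% ± 0.44%. For the other 4 subunits the exact two-sided permutation p was 0.1 each (0.125 adjusted over 5), the smallest possible, and for Rel it was 0.3. Without FTY720 replicate 3 the difference in share was 23.7 percentage points for Nfkb2 and -17.85 for Rela, against 23.5 and -19.6 with it.

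**Figure D3:**
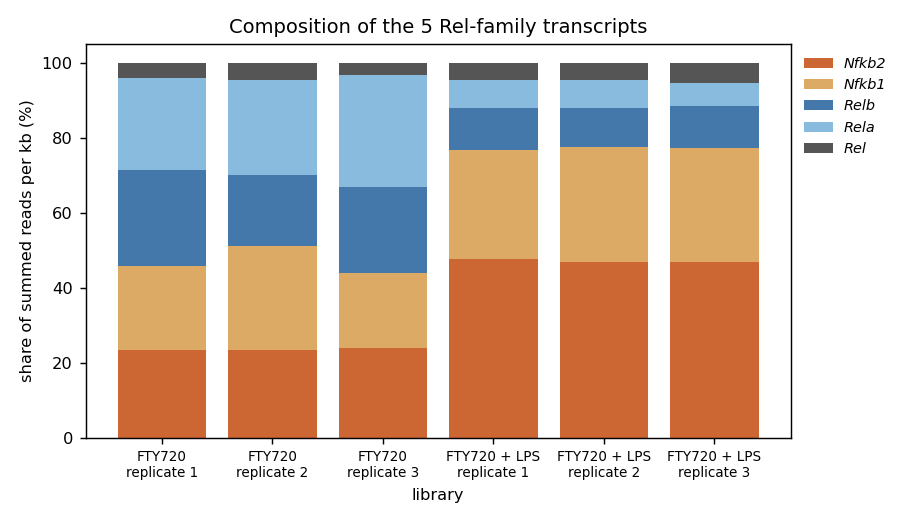
Stacked bars give, for each of the 6 libraries, the share (%) of each of the 5 Rel-family genes in their summed reads per kilobase of exon. The Nfkb2 segment grows from 23.6% to 47.1% on average, while the Rela segment shrinks from 26.7% to 7.09% on average.

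Ratios of 2 genes within a library do not depend on how libraries are scaled to each other. In 8 such ratios, the log2 ratio of reads was averaged over each group. Rel gained on Rela by 2.19 (from -1.30 ± 0.43 to 0.89 ± 0.29, SD, n = 3), and Relb gained on Rela by 0.88 (from -0.54 ± 0.25 to 0.34 ± 0.20). Nfkb2 gained on Nfkb1 by 0.62 (from 0.07 ± 0.26 to 0.69 ± 0.06) and on Relb, the partner of its product p52, by 2.02 (from 1.01 ± 0.20 to 3.03 ± 0.05). In each of these the libraries of the groups were separate.

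Among the kinase genes, Ikbkb lost against Chuk, the log2 ratio falling from -0.27 ± 0.40 to -1.37 ± 0.15 (SD, n = 3), a difference of -1.10. Replicates 1 and 2 with FTY720 had nearly equal reads of both genes (-0.08 and 0.00), replicate 3 stood at -0.74, and the LPS libraries stood at -1.22, -1.37 and -1.53. The ratio of Ikbkb to Ikbkg overlapped between the groups (-0.81 ± 0.41 and -0.32 ± 0.38). Map3k14 gained by 1.21 on Traf3, the adaptor that marks NIK for degradation (from -1.32 ± 0.26 to -0.11 ± 0.15). Nfkbia, which encodes the inhibitor IκBα, gained by 3.46 on Rela (from 1.19 ± 0.03 to 4.66 ± 0.35). The exact two-sided permutation p was 0.1 (0.114 adjusted over 8) for all ratios but that of Ikbkb to Ikbkg (0.3), and 0.1 is the smallest that 3 against 3 libraries allow.

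**Figure D4:**
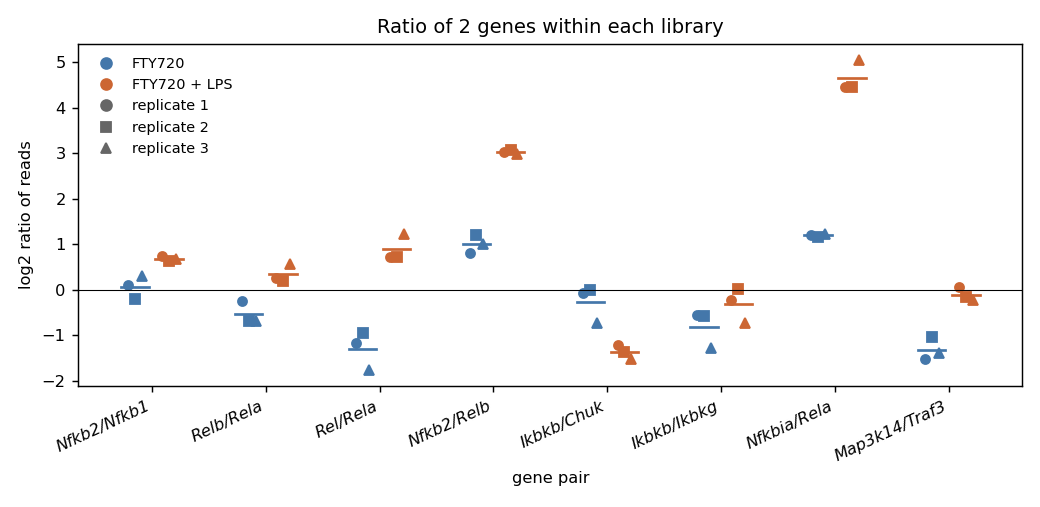
The log2 ratio of reads of 2 genes within each of the 6 libraries; points are libraries, marker shapes are replicates and short lines are group means (n = 3). Groups are separate for every pair except Ikbkb and Ikbkg, and the ratio of Ikbkb to Chuk is the one that falls.

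The remaining genes of the pathway were taken from lists, and their counts stand beside all 10124 tested genes, of which 46% were called in either direction, with a median log2 fold change of -0.04. Sizes of change in these lists are on the log2 scale, with SE, unless called a ratio. Of the IκB family, whose products hold or modify the dimers, 4 of 5 tested genes rose and 1 fell (median 3.22). Nfkbiz, the nuclear IκBζ, rose by 4.62 ± 0.13, Nfkbia by 3.99 ± 0.12 (73.4 ± 3.48 to 1166 ± 105.2 CPM, SD, n = 3) and Nfkbie by 3.22 ± 0.27. The one that fell was Nfkbid, the nuclear IκBNS (-1.82 ± 0.34), named after its value was seen.

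Upstream of the complex, 4 of 11 tested LPS receptor and adaptor genes rose and 2 fell (median 0.04), together 54.55%, near the share over all genes. On the log2 scale, the LPS co-receptor Cd14 rose by 2.12 ± 0.11, the adaptor Myd88 by 1.26 ± 0.14, and the receptor Tlr4 fell by 2.20 ± 0.19. In the TAK1 and linear ubiquitin complexes, which activate IKK, 4 of 10 rose and 1 fell (median 0.20), together 50%, also near the share over all genes. With total library size alone 0 were called higher. There Tab1, a TAK1-binding subunit, changed most (-1.79 ± 0.34), while Ube2n, the enzyme for lysine-63 ubiquitin chains, stood at 0.78 ± 0.16 and Rnf31, the catalytic subunit of the linear ubiquitin ligase, at 0.73 ± 0.24. The Rnf31 call ended without FTY720 replicate 3 (0.48, edgeR adjusted p = 0.07) and without FTY720_LPS replicate 3 (0.70, edgeR adjusted p = 0.0531).

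Of 10 ubiquitin-editing feedback genes 5 rose and 1 fell (median 0.45). On the log2 scale, Tnfaip3, the A20 inhibitor, rose by 2.77 ± 0.13 and the ribonuclease gene Zc3h12a (Regnase-1) by 1.94 ± 0.19. Tnip3, an A20-binding inhibitor, had 2 reads with FTY720 and 62 with LPS, a ratio of 45.1 (exact 95% counting interval 12.0 to 380). In the non-canonical list 5 of 9 tested genes rose and 1 fell (median 0.75). The receptor gene Cd40, which activates Map3k14, rose by 7.65 ± 0.25, from 16 to 2312 reads, Traf1 by 4.15 ± 0.44 and Birc3, a ubiquitin ligase that limits NIK, by 0.79 ± 0.17. The call of Birc3 ended with total library size alone (0.48, edgeR adjusted p = 0.203). Of the other parts of the complex that limits NIK, Traf3 and Birc2 stood at 0.03 ± 0.19 and 0.03 ± 0.18. Traf2, also part of it, was called higher (0.78 ± 0.17, edgeR adjusted p = 0.000517), a call that ended with total library size alone. Traf3, Birc2 and Traf2 were named after their values were seen.

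Among the IKK-related kinases and their partners, 3 of 7 rose and 1 fell (median 0.21), together 57.14%. Map3k8, the kinase held by p105, rose by 1.57 ± 0.16, from 21.1 ± 3.38 to 63.2 ± 1.72 CPM (SD, n = 3). The TBK1 adaptor genes Tank and Tbkbp1 stood at 0.94 ± 0.15 and -1.11 ± 0.37. The Tank call ended with total library size alone (edgeR adjusted p = 0.0847), and that of Tbkbp1, with 69 and 22 reads, in 5 alternatives, including the fits without FTY720 replicate 2 (-0.87, edgeR adjusted p = 0.0929), without FTY720_LPS replicate 1 (-0.86, 0.127) and without FTY720_LPS replicate 2 (-1.06, 0.0707).

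Target genes, a list of textbook NF-κB-induced genes that includes Cd40, Traf1 and Birc3 from the list above, rose in 18 of 19 tested members and fell in 1, Bcl2l1 (-0.89 ± 0.36, named after its value was seen). Their median was 5.34, and it was the same when Il12b and Csf2 were placed at their lower bounds. Cxcl1, a neutrophil-attracting chemokine, rose by 9.19 ± 0.20 on the log2 scale (584-fold). Il12b, which encodes a chain of interleukin-12, had 1 read with FTY720 and 764 with LPS, a ratio of 1111 (exact 95% counting interval 198.8 to 43930), and Csf2, the gene of GM-CSF, had 1 and 388, a ratio of 564 (100.7 to 22340). The call of Bcl2l1 ended in 9 alternatives, among them the fit without FTY720 replicate 1, without FTY720 replicate 2 and without each of the 3 LPS libraries.

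**Figure D5:**
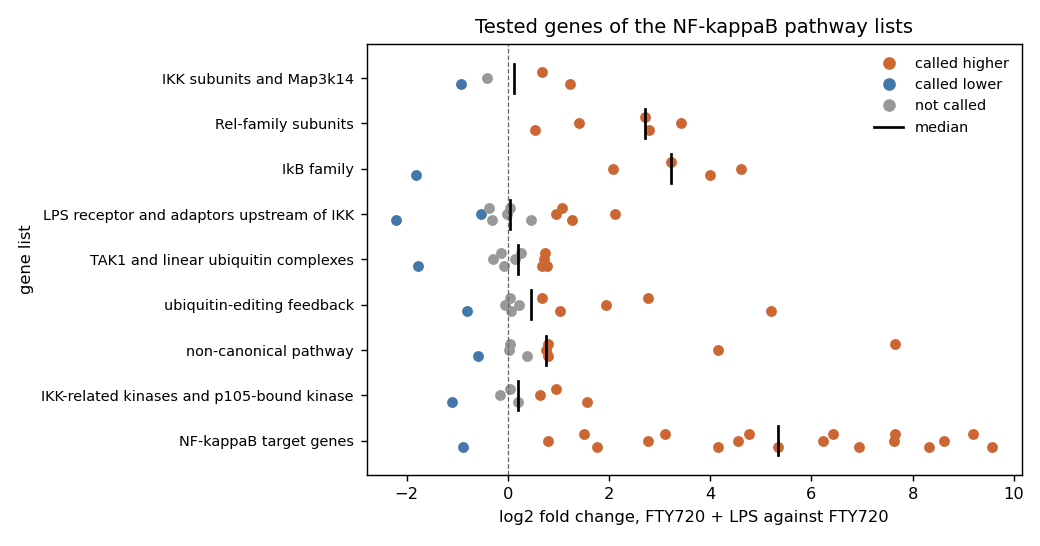
Points are the log2 fold changes (FTY720 with LPS against FTY720) of all tested genes of each list, black bars are medians and colours give the call; for Tnip3, Il12b and Csf2, with 1 or 2 reads with FTY720, the fitted value shown depends on edgeR's prior count. The subunits, the IκB family and the target genes lie mostly to the right, with medians of 2.70, 3.22 and 5.34, while the IKK genes with Map3k14 (median 0.13) and the upstream lists lie around 0.

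The tested genes with the profiles nearest to Rela, Nfkb2, Nfkb1 and Rel were found by the root mean square distance between centred log2 CPM values over the 6 libraries, among 9776 genes. Nearest to Rela were Prep, Casc3 and Rnf114 (distances 0.05 to 0.06). For Nfkb2 they were Helz2, Ehd1 and Errfi1 (0.13 to 0.17). Nfkb1 and Rel had the same 3 nearest genes, Trim69, Ubash3b and Abtb2, at 0.09 to 0.11 from Nfkb1 and 0.11 to 0.15 from Rel. The log2 CPM values used a prior count of 2, while the fitted log2 fold change of Trim69, at a mean of 0.336 CPM with FTY720, was 4.08 ± 0.58.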

How the data were processed

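RNA-seq counts of 6 libraries were analysed, 3 per group. The authors deposited raw read counts per gene symbol, with both strands together and each strand apart, in the layout of STAR's gene counts. Per the submitters' processing notes, CASAVA 1.8.2, Trimmomatic 0.33, STAR 2.5.1, DESeq2 and build mm10 were used; for settings and annotation the sources used here give nothing. Per the labels' protocols, rRNA was depleted and libraries were directional. Sense counts (98.4% to 98.9% of gene reads) were used. Rows naming no gene stayed out: as shares of all reads, 24.4% to 27.0% were unmapped, 7.69% to 8.15% multimapping, 42.2% to 44.5% outside exons and 0.0748% to 0.114% ambiguous. A count of 0 allows 3 reads, or 0.868 to 1.23 per 1000000 gene reads before TMM scaling. Intervals cover counting error only.

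edgeR 4.0.16 (R 4.3.3) fitted the group effect by quasi-likelihood, with TMM factors and filterByExpr (minimum count 10), leaving 10124 of 24411 genes; p-values were adjusted by Benjamini-Hochberg over all of them, with a threshold of 0.05. SE is the absolute log2 fold change over the square root of F. The fit was tested on simulated data. Alternatives were DESeq2 1.42.0, upper-quartile factors, total library size, removal of each library's expression trend (loess, span 0.3), no filter, both strands, a replicate block and leaving out each library; leaving out the 3 rRNA-like rows, and lengths from all exons, were added after seeing the data. Named genes are the members, up to 3 called genes of largest change per list, and 3 nearest profiles per subunit; those of Relb are not reported here. Members and lists were chosen with earlier results of these data known. Ratios used 0.5 reads added to each count.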

Additional observations from a re-analysis of the deposited data

Results flagged for a closer look

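Reads on the strand opposite to a member were not used in the comparisons. For 3 members they were more frequent in every LPS library than in every FTY720 library, in CPM. At Nfkb2 they numbered 84 over the LPS libraries (10.1 to 16.6 CPM) and 19 over the FTY720 libraries (1.68 to 2.02 CPM). As a share of the reads at the Nfkb2 locus they made up 2.02% to 3.55% with LPS and 3.25% to 4.79% with FTY720, where all genes together had 1.06% to 1.61% opposite-strand reads per library. On the opposite strand, the lncRNA AC114539.1 shares 531 bp of exon with Nfkb2. It has no row in the counts, so any of its reads in that stretch cannot be told apart from the opposite-strand reads at Nfkb2. Psd, also on the opposite strand, shares 299 bp and had 39 and 16 reads of its own with FTY720 and with LPS.

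At Nfkb1 there were 18 opposite-strand reads with LPS and 1 with FTY720, at most 1.14% of the reads at the locus in any library. At Chuk there were 7 and 2, a number too small to compare. The difference between groups in these reads was not tested.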

How the results depend on the processing

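Over 14 alternative fits, all 9 members kept their direction in all fits, and Nfkb1 (2.45 to 3.06), Nfkb2 (3.01 to 3.55), Rel (2.42 to 2.98), Relb (1.09 to 1.54), Map3k14 (0.93 to 1.45) and Ikbkg (-1.27 to -0.82) kept their call in each. With total library size alone, Rela (0.23) and Chuk (0.33) lost their call. Ikbkb was called lower with upper-quartile factors (-0.55), total library size alone (-0.71), both strands together (-0.45), the replicate block (-0.44) and without FTY720 replicate 3 (-0.58); leaving out 1 library gave -0.58 to -0.29. In these 5 settings 2 members were called lower; leaving out 1 library gave 1 to 2. The cause was not tested. The replicate numbers showed no pairing: same-numbered libraries correlated at -0.02, -0.03 and -0.07 in their deviations from group means. The replicate block gave 2292 higher and 2174 lower calls over all genes, against 2362 and 2297, and moved no member's call but that of Ikbkb.

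With total library size alone the lists had fewer genes higher: 2 of the LPS receptor list, 0 of the TAK1 and linear ubiquitin list, 3 of the feedback list, 2 of the non-canonical list and 1 of the IKK-related list. With upper-quartile factors 2 of the TAK1 and linear ubiquitin list were lower. The 1 lower call of the IKK-related list (Tbkbp1) became 0 with DESeq2 and with the expression trend removed, and leaving out 1 library gave 0 to 1. The 1 lower target gene (Bcl2l1) became 0 with DESeq2, the expression trend removed, no low-count filter and both strands together, and leaving out 1 library gave 0 to 1. The share of calls over all genes that were higher was 50.7% with TMM factors, 38.8% with upper-quartile factors and 22.1% with total library size alone. The subunit shares and the within-library ratios kept their direction in all alternatives run. Without division by length the Nfkb2 share differed by 20.8 percentage points, and with the union of all exons by 30.1, against 23.5. The Nfkb1 share differed by 3.20 (permutation p = 0.4, exact) and 3.06 in these settings, against 6.72, and without division by length the Rel share differed by 0.44 (exact permutation p = 0.9), against 0.85. No alternative could reach a permutation p under 0.1. Map3k14 (82 reads with FTY720) and Rel (131) are the members that depth limits most.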

Other observations

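Several pathway genes had too few reads to be tested. Bcl3, the IκB-family coactivator of p50 and p52 dimers, had 21 reads over the FTY720 libraries and 31 over the LPS libraries. Irak4, the kinase that first joins Myd88, had 25 and 15. Tnfrsf13c, the BAFF receptor, had 3 and 0, and the adhesion molecule gene Vcam1 had 9 and 11.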
